A study of Mus musculus with 74 samples.

Results

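Growth factors and morphogens are the secreted signals by which cells direct each other's growth and identity, and their receptors sit on the receiving cell. The set described here holds every array probe whose single gene symbol names a member of the Wnt, Frizzled, BMP, GDF, inhibin, TGF-β ligand, activin receptor, Notch, Delta, Jagged, FGF, IGF, PDGF, VEGF, EGF receptor, ephrin, Eph, numbered LRP, SFRP or Dickkopf families, matched by the letters of the symbol. It holds 56 of the 5844 named genes on the array, read by 73 of its 8976 probes. Of these genes, 13 are on several probes. The letters also matched 5 genes set apart here as no such signals: Bmp2k, Ephx2, Fgfr1op2, Igf2bp1 and Igf2os, on 6 probes, which stay in the counts. Bmp1, whose product is a protease, is no such signal either but was kept with the ligands by its name. No measured value entered the choice.

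TGF-β binds a type II receptor, which activates a type I receptor, and the type I receptor phosphorylates Smad2 and Smad3, which enter the nucleus with Smad4 and regulate genes. BMPs use the same layout with other receptors and other Smads. Cells that respond to TGF-β are known to alter their supply of other signals, among them PDGF and Wnt ligands and IGF-binding proteins, and to change the receptors they carry. The ERK branch, which the MEK inhibitor U0126 blocks, can run beside the Smads.

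The data were log2 ratios from 74 dual-channel mouse arrays. Each array compared 2 RNAs of the same line: channel 2 from cells given TGF-β and channel 1 from cells without it. The lines were S2WT, S3WT, S2KO, S3KO and U0126, sampled at 0, 0.3, 1, 2 and 4 h, with 3 arrays per line and time except 2 for S3KO at 1 h. In a published study of this design the S2 and S3 lines are mouse embryonic fibroblasts with Smad2 or Smad3 knocked out and their wild-type partners. By the labels both channels of the U0126 arrays name S2WT and U0126, although their titles set S2WT against U0126. On the 0 h arrays neither channel had TGF-β, so they gave the background ratio of each probe. A source label names no TGF-β in either channel of the S3KO 0.3 h arrays, and one calls the S2WT 4 h arrays 2 h, and the titles were followed. The sources used here do not say whether replicate arrays came from separate cultures or whether a line was 1 clone. The p-values thus reflect only how far arrays of a group differ, part of which may be technical.

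A ratio within a line gives no level, so neither the knockouts nor the cell type could be checked. Of the marker lists, 2 of 8 fibroblast, 3 of 5 endothelial, 2 of 5 epithelial and 4 of 5 leukocyte genes were on the array, and no probe of them passed the test in any response of a line or mean of lines. Arrays measured 7688 to 8713 probes, and a member was measured on 40 to 74 arrays. The number of arrays limits the precision. Over the 15 arrays at 0 h, the median SD of a member was 0.63 log2 units, against 0.53 over all probes. Each array was correlated with the mean 0 h ratio of the other lines over the 2244 probes measured on every array. Of the arrays, 3 from S3KO stood apart: -0.16 and -0.10 for replicates 1 and 2 at 0 h and -0.38 for replicate 2 at 1 h, against 0.55 for replicate 3 at 1 h. U0126 1 h replicate 1 (0.06, against 0.50 and 0.40 for replicates 2 and 3) and S3WT 4 h replicate 1 (0.13, against 0.37 and 0.50) were low for their groups. The counts of called members that used either array were 0, and leaving it out kept them at 0. The direction of the S3KO 1 h array is not settled. With its sign turned, the response of a member moved by a median of 0.08 and at most 0.73 in S3KO against the pooled 0 h arrays, where 7 of 48 changed sign, and against its own, where 6 of 52 did. The mean of 5 lines moved by at most 0.15, and 1 of 44 changed sign. For all other arrays the ratio was taken as TGF-β over control, which is likely but not stated.

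The late response of a line, its mean at 1, 2 and 4 h minus 0 h, was called in S2KO for 5 member probes, all higher: the BMP receptor gene Acvr1, the ephrin gene Efnb1, the PDGF ligand gene Pdgfa, the Wnt ligand gene Wnt5a and the IGF-binding protein gene Igfbp5. No member was called in S2WT, S3WT, S3KO or U0126. Called means an adjusted p under 0.05 by limma's moderated test with Benjamini-Hochberg adjustment over all probes of a contrast. Responses were taken against a line's own 0 h arrays and against the 15 pooled 0 h arrays of the 5 lines. In the plot of responses by role, the called probes of S2KO lie well inside the range of the members that were not called.

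**Figure D1:**
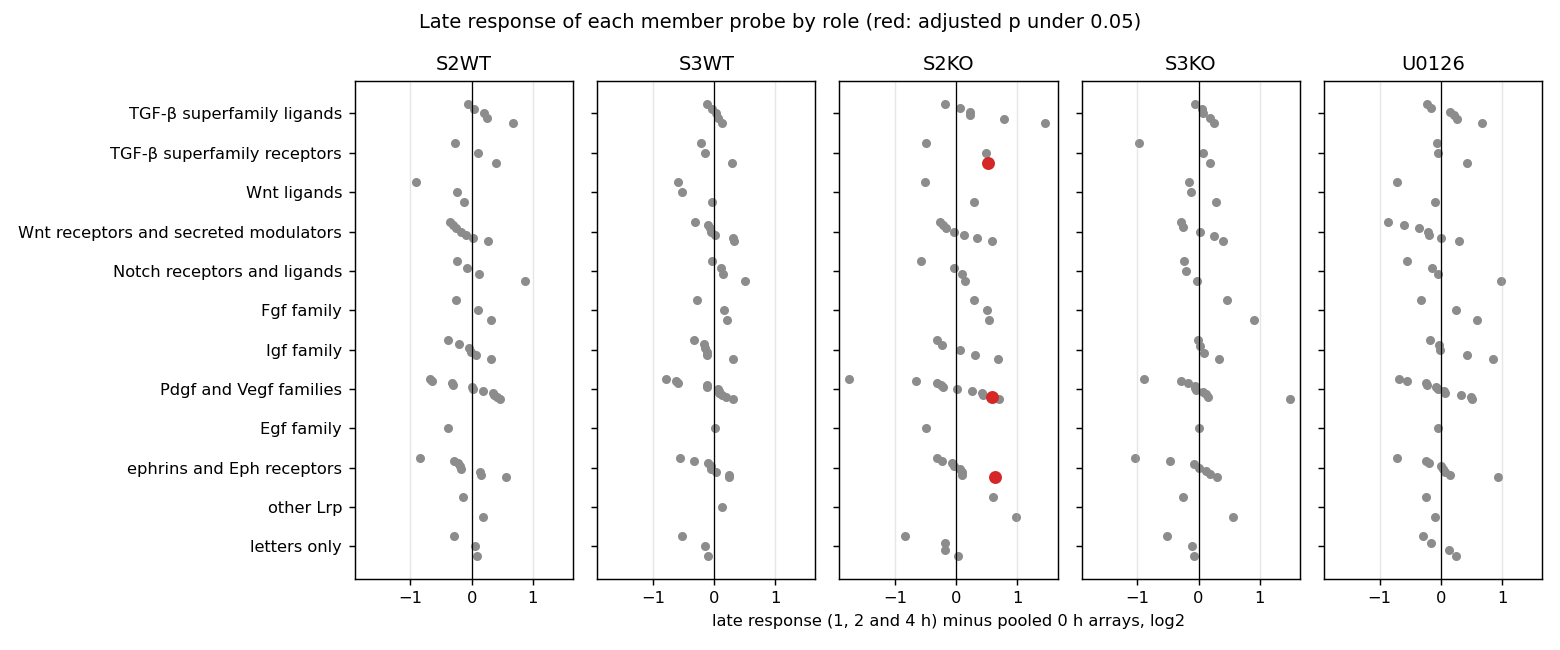
Late response of every tested member probe against the pooled 0 h arrays, in log2 units on the horizontal axis, with 1 panel per line and 1 row per role. Each point is a probe, and the 3 red points, all in S2KO, are Acvr1 (0.52), Pdgfa (0.59) and Efnb1 (0.64).

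Against own 0 h arrays, 2 of 63 members were called in S2KO, where 0.515% of all tested probes were. None of 62 was called in S2WT, where 0.192% of all probes were, none of 65 in S3WT (0.12%), none of 52 in S3KO (1.53%) and none of 68 in U0126 (0.0719%). At an unadjusted p under 0.05 the members numbered 9 in S2KO, 4 in S2WT, 1 in S3WT, 11 in S3KO and 2 in U0126. Over all probes the unadjusted shares were 8.22%, 7.8%, 5.47%, 10.8% and 6.35% in the same order. The 9 of S2KO (14.3%) and 11 of S3KO (21.2%) were shares above those of all probes, and the 11 of S3KO fell on both sides, with 5 higher and 6 lower.

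Against the pooled 0 h arrays, 3 of 56 members were called in S2KO (5.36%), where 2.49% of all probes were. None of 56 was called in S2WT (1.27% of all probes), none of 55 in S3WT (0.146%), none of 48 in S3KO (0.0141%) and none of 56 in U0126 (0.782%). Members at an unadjusted p under 0.05 numbered 15 in S2KO (26.8%), 8 in S2WT (14.3%) and 4 in S3WT (7.27%). There were 6 in S3KO (12.5%) and 7 in U0126 (12.5%). The unadjusted shares of all probes were 14.9%, 12.3%, 8.41%, 5.17% and 10.6%. In S2KO 11 of the 15 were higher and 4 lower. The median response of the members was 0.07 in S2KO, -0.03 in S2WT, -0.04 in S3WT, 0.00 in S3KO and -0.04 in U0126, where that of all probes lay between 0.00 and 0.01. The 95% interval of the response lay within 2-fold either way for 35 of 56 members in S2KO, 37 of 56 in S2WT, 37 of 55 in S3WT, 34 of 48 in S3KO and 35 of 56 in U0126. A change above 2-fold is thus bounded for most members, and a smaller one is not.

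Promoter windows from RefSeq (GRCm38.p6, 250 bases before to 50 after a start) are shown for the 3 genes called together against the pooled 0 h arrays. Capitals mark the Smad box, CAGAC or GTCTG, searched on both strands. Pdgfa had another window, chr5:138994232-138994531, which held no Smad box and is not shown. Of the 3 windows shown only that of Efnb1 held one, at position -161 relative to the start:
Acvr1, chr2:58566779-58567078, minus strand: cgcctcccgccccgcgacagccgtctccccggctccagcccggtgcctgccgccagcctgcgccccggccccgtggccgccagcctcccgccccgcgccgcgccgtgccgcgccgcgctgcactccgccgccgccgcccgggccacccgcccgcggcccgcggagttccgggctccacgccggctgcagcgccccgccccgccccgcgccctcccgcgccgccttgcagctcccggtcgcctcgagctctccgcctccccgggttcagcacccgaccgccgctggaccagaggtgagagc
Efnb1, chrX:99135811-99136110, plus strand: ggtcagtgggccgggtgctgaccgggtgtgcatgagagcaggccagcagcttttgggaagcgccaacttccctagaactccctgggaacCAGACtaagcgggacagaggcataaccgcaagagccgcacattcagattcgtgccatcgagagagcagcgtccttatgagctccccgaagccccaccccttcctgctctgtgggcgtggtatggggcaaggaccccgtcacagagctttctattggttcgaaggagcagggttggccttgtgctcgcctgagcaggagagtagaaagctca
Pdgfa, chr5:138994895-138995194, minus strand: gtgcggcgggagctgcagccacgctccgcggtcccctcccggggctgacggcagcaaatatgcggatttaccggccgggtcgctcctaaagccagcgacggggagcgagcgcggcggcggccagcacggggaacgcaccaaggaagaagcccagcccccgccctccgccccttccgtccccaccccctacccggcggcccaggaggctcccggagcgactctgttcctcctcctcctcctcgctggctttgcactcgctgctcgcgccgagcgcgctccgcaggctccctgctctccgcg

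The Smad box was in 23 of 51 windows of 41 member genes (45.1%) and in 49.6% of all 32851 windows of that length. The palindromic Smad element GTCTAGAC was in 0 member windows and in 0.213% of all. The AP-1 element TGACTCA or TGAGTCA was in 2 member windows (3.92%) and in 5.2% of all. None of these letters thus stood out in the member windows, and letters alone show no binding.

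Among the receptors of the TGF-β superfamily, the only called gene was Acvr1, which encodes a type I receptor for BMPs and activins. Its S2KO log2 ratios were 0.00, -0.07 and 0.32 at 0 h and 0.16, 0.01 and 0.32 at 0.3 h. They were 0.62, 0.15 and 0.28 at 1 h, 0.74 and 0.89 at 2 h with 1 array missing, and 0.84, 0.29 and 0.71 at 4 h. The highest arrays are those at 2 and 4 h, and the 1 h and 4 h arrays overlap the 0 h ones. All 8 late arrays lay above both the own and the pooled 0 h mean. The response was 0.52 ± 0.11 (SE) against the pooled 0 h arrays (adjusted p = 0.00298) and 0.51 ± 0.17 against its own (adjusted p = 0.229).

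In the other lines Acvr1 was not called. In S3WT the 4 h arrays read 0.34, 0.89 and 0.35 and the 0 h arrays 0.01, 0.15 and 0.14, so these times did not overlap there. The S3WT late response was 0.29 ± 0.11 (adjusted p = 0.354). It was 0.11 ± 0.11 in S2WT, whose 4 h arrays spread from -0.47 to 0.53, 0.07 ± 0.12 in S3KO (0.05 with the sign of the doubtful array turned) and -0.04 ± 0.11 in U0126. U0126 read between -0.18 and 0.30 at every time. The difference of the own-0 h responses, S2KO minus S2WT, was 0.44 ± 0.24 (adjusted p = 0.733), so S2KO was not shown to differ from S2WT. Left uncentred or scaled to a common spread, the arrays gave 0.43 (adjusted p = 0.0714) and 0.39 (adjusted p = 0.0506), which ended the call.

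The other receptors were not called in any contrast. Bmpr2, the type II BMP receptor, read 0.43, 0.64 and 0.84 at 2 h and 0.93, 0.90 and 0.48 at 4 h in S2KO, against 0.77, 0.26 and -0.73 at 0 h. The 0 h arrays overlapped with both times. Its pooled responses were 0.48 ± 0.18 in S2KO, 0.40 ± 0.18 in S2WT, 0.42 ± 0.18 in U0126, 0.18 ± 0.19 in S3KO (0.19 with that sign turned) and -0.21 ± 0.18 in S3WT. S3WT had the lowest 0 h mean of Bmpr2, from arrays at -0.93, -0.37 and -0.25, and against these its response was 0.30 ± 0.28. Acvrl1, a type I receptor best known in endothelium, gave -0.39 ± 0.34 in the mean of 5 lines. Acvr1b, the activin type I receptor gene, lacked 0 h values for the pooled comparison.

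The ligand group of the superfamily held no called probe. Bmp1, which despite its name encodes a procollagen-cleaving protease and no ligand, was grouped here by its symbol and was on 3 probes. Its probe 5469 read 0.12, 0.45 and 0.18 at 0 h and 0.89, 0.61 and 0.55 at 4 h in S2WT, which did not overlap. In U0126 it read 0.40, 0.66 and 0.58 at 0 h and 0.98, 0.72 and 0.50 at 4 h, which did. In S2KO it read 0.68, 0.30 and 0.57 at 0 h and 0.57, 0.44 and 0.56 at 4 h, with no shift. The pooled responses of this probe were 0.25 ± 0.10 in S2WT, 0.26 ± 0.10 in U0126, 0.22 ± 0.10 in S2KO, 0.05 ± 0.10 in S3KO (0.15 with that sign turned) and -0.03 ± 0.10 in S3WT. Against own 0 h arrays probe 5469 gave 0.42 ± 0.16 in S3KO (unadjusted p = 0.0101, adjusted p = 0.205) and 0.35 ± 0.15 in S2WT. It gave 0.06 in U0126, 0.05 in S2KO and -0.13 in S3WT. Its mean was 0.15 ± 0.07 over 5 lines (adjusted p = 0.415) and 0.08 over the 4 lines other than S3KO (adjusted p = 0.837). In the mean of 5 lines probe 4800 gave 0.11 ± 0.07 and probe 772 gave 0.00 ± 0.14. Tgfb2, a TGF-β ligand gene and the only Tgfb symbol in the set, gave -0.07 ± 0.13. Its responses per line lay between -0.19 ± 0.18 in S2KO and 0.18 ± 0.19 in S3KO (0.04 with that sign turned).

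Bmp5, a BMP ligand gene named here after its values were seen, had the highest value of the group against the pooled 0 h arrays, 1.45 ± 0.51 in S2KO (unadjusted p = 0.00712, adjusted p = 0.132). Its S2KO arrays read -0.15, 0.03 and -0.13 at 0 h, 3.73, 0.54 and 1.19 at 1 h, 2.93 and 1.57 at 2 h and -4.23, 0.46 and 1.25 at 4 h. All late arrays but the one at -4.23 lay above the 0 h arrays, and they spread widely. Against its own 0 h arrays the response was 1.16 ± 0.79 (adjusted p = 0.806). The pooled responses were 0.67 ± 0.51 in S2WT, 0.67 ± 0.49 in U0126 and 0.26 ± 0.51 in S3KO, and S3WT could not be tested. Gdf9, another ligand gene of the superfamily, gave 0.79 ± 0.81 in S2KO and could not be tested in every line, and Gdf10 was measured too seldom for any contrast.

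Wnt5a, a ligand known for signalling without β-catenin, was called in S2KO against that line's own 0 h arrays and the call rests on those arrays. They read -2.06, -1.31 and -0.26. The 0.3 h arrays read -0.55, -1.51 and -0.97, the 1 h arrays -0.04, -0.38 and -0.83, the 2 h arrays -0.27, 1.90 and -0.45, and the 4 h arrays 0.17, -0.27 and 0.14. All 9 late arrays lay above the 0 h mean, but the third 0 h array lay inside their range. The response was 1.21 ± 0.30 (adjusted p = 0.0453), from a 0 h mean of -1.21 to a late mean of 0.00. The lowest S2KO values of this gene were thus on 0 h and 0.3 h arrays.

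Without S2KO 0 h replicate 1 the Wnt5a response was 0.78 (adjusted p = 0.565), and against the pooled 0 h arrays it was 0.29 ± 0.19 (adjusted p = 0.51). The call was kept in 5 of the 12 fits that left out 1 array, where the response ranged from 0.78 to 1.68. In the other lines the Wnt5a 0 h arrays lay between -0.55 and 1.15, with the S3KO arrays highest at 1.15, 0.68 and 0.05. The S2KO minus S2WT difference was 1.52 ± 0.42 (adjusted p = 0.266). Own responses were -0.32 ± 0.30 in S2WT, -0.03 ± 0.30 in S3WT, -0.64 ± 0.31 in S3KO (-0.74 with that sign turned) and 0.00 ± 0.30 in U0126.

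Wnt3a, a ligand of the β-catenin branch, gave -0.55 ± 0.29 in the mean of 5 lines (adjusted p = 0.504). Its S3WT arrays read 0.71, 0.48 and 0.58 at 0 h and -0.58, -0.05 and 0.45 at 4 h, which did not overlap. Its S3KO 0 h arrays read -0.33, 3.77 and 2.30, a spread wider than any response of this probe. Wnt5b was not measured well enough for every line. Of the receptors and secreted modulators of this pathway, 0 of 8 probes tested in the mean of S2WT and S3WT and 0 of 5 in the mean of 5 lines were called, and none had an unadjusted p under 0.05 there. Fzd4, a receptor, gave -0.31 ± 0.22 in the mean of 5 lines, between -0.22 ± 0.30 and -0.36 ± 0.30 in each line against the pooled 0 h arrays. Against the own 0 h arrays of S3KO it gave -1.39 ± 0.49 (unadjusted p = 0.00668, adjusted p = 0.161). In the mean of 5 lines Fzd1 gave 0.10 ± 0.14 and 0.00 ± 0.14 on its probes, Fzd5 -0.11 ± 0.36 and Sfrp1, a secreted Wnt antagonist, 0.00 ± 0.09 on probe 7451. That Sfrp1 probe read 0.34 ± 0.13 in S2KO against the pooled 0 h arrays and was not called. Against the same arrays Sfrp1 probe 4185 gave -0.87 ± 0.34 in U0126 (unadjusted p = 0.0131, adjusted p = 0.296). It gave 0.58 in S2KO, 0.31 in S3WT and -0.18 in S2WT. Probe 4081 gave 0.13 in S2KO, -0.09 in S3WT, -0.21 in U0126 and -0.31 in S2WT.

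Notch receptors and ligands, which signal between touching cells, gave no call. Notch1 gave -0.11 ± 0.12 on probe 4022 in the mean of 5 lines, and Jag2, a Notch ligand, 0.04 ± 0.07 and -0.18 ± 0.40 on its probes. Notch4, a receptor gene named after its values were seen, had no value in the mean of 5 lines. In the mean of S2WT and S3WT it gave 1.2 ± 0.48 (unadjusted p = 0.0164, adjusted p = 0.43), the one member higher at an unadjusted p under 0.05 there. Its S2WT arrays read -0.89 and -0.48 at 0 h and 0.12, 0.95 and 0.86 at 4 h, and its S3WT arrays -1.97, -2.19 and -0.22 at 0 h and 0.20 and -1.17 at 4 h. All 8 late S2WT arrays lay above both 0 h arrays, whereas in S3WT the groups overlapped. Against the pooled 0 h arrays it gave 0.88 ± 0.43 in S2WT (adjusted p = 0.392), 0.98 ± 0.41 in U0126 (adjusted p = 0.341), 0.15 ± 0.43 in S3WT and 0.09 ± 0.43 in S2KO. No probe of Notch1, Notch4, Dll1 or Jag2 was called in any contrast.

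In the IGF group, which holds growth factors, their receptor and their carriers, the called gene was Igfbp5, and its call rests on 0 h arrays as well. Igfbp5 encodes a secreted protein that binds IGFs. On probe 8362 the S2KO 0 h arrays read -4.89, -6.30 and -0.05. The 1 h arrays read -1.33 and 0.21, the 2 h arrays 0.78, 0.42 and -0.02, and the 4 h arrays -0.76 and -1.61, with 1 array missing at 1 h and 1 at 4 h. The 7 late arrays all lay above the 0 h mean of -3.75, but the third 0 h array lay inside their range. The response was 3.30 ± 0.74 (adjusted p = 0.0305), and without 0 h replicate 1 or replicate 2 it was 2.73 (adjusted p = 0.163) or 2.02 (adjusted p = 0.44).

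No pooled value could be had for that probe, since S3KO had a single 0 h value. The direct comparison of treated arrays, S2KO minus S2WT, was -0.43 ± 0.54 (adjusted p = 0.841). The other Igfbp5 probe, 7157, went the other way: S2KO arrays read -0.70, -0.98 and 0.49 at 0 h and -2.24, -0.31 and -0.85 at 2 h, and the late response was -0.31 ± 0.38 against the pooled 0 h arrays. Probe 8362 was measured on 62 arrays. Averaging the probes left 1.50 (adjusted p = 0.252).

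The rest of the group gave no call. In the mean of 5 lines, Igf1, the growth factor itself, gave -0.08 ± 0.09, and Igf2r, which clears IGF2, gave 0.06 ± 0.09. Igfals, a carrier subunit for IGFs, gave 0.33 ± 0.27. Its highest response against the pooled 0 h arrays was 0.86 ± 0.36 in U0126 (unadjusted p = 0.0203, adjusted p = 0.339), where all 9 late arrays lay above the pooled 0 h mean, followed by 0.69 ± 0.39 in S2KO. Igf2, the other growth factor of the group, was on 2 probes with wide errors and had no value in the mean of 5 lines. Probe 3035 gave -1.0 ± 0.94 in S2WT, -0.76 ± 0.97 in S2KO, -0.31 ± 0.81 in S3WT and 0.56 ± 0.79 in U0126 against own 0 h arrays. Probe 2969 gave -0.47 ± 0.90 in S2WT and 0.37 ± 0.87 in S3WT. Igfbp3, another binding protein, gave 0.05 ± 0.11 in the mean of 5 lines. Against the pooled 0 h arrays Igfbp3 read 0.31 ± 0.16 in S3WT, 0.30 ± 0.16 in S2KO, 0.03 ± 0.16 in S3KO (-0.07 with that sign turned), -0.18 ± 0.16 in U0126 and -0.20 ± 0.16 in S2WT.

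Of the FGF group, Fgfr1, an FGF receptor, was read by 2 probes. On probe 25 the S2WT arrays read -0.75, 0.02 and 0.08 at 0 h, 0.73, 0.38 and 0.29 at 2 h and 0.61, 0.60 and 0.77 at 4 h, so those late times lay above, although 1 array at 1 h read -1.98. In S2KO it read 0.57, 0.50 and 0.50 at 0 h and 0.42, 0.25 and 0.74 at 4 h, and in U0126 0.00, 0.30 and 0.23 at 0 h and 0.19, 0.22 and 0.17 at 4 h. Those groups overlapped. The mean over 5 lines was 0.34 ± 0.15 (adjusted p = 0.398), and 0.26 with the sign of the doubtful S3KO array turned. Against own 0 h arrays the response was highest in S3KO, 0.93 ± 0.39 (unadjusted p = 0.0202, adjusted p = 0.305). It was 0.45 in S2WT and in S3WT, -0.10 in S2KO and -0.02 in U0126. The mean of the 4 lines other than S3KO was 0.20 (adjusted p = 0.797). Probe 1843 gave -0.25 ± 0.24 in S2WT and 0.29 ± 0.24 in S2KO against the pooled 0 h arrays. Fgfbp1, a carrier that releases FGFs, gave 0.37 ± 0.29 in the mean of 5 lines. Fgf1 and Fgf15 were measured on 48 and 49 arrays.

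In the PDGF and VEGF group the called gene was Pdgfa, which encodes the A chain of the mesenchymal mitogen PDGF. On probe 8900 the S2KO arrays read 0.16, -0.12 and 0.23 at 0 h, 1.39, 0.53 and 0.23 at 0.3 h and 1.00, 0.07 and 0.21 at 1 h. They read 1.31, 0.36 and 1.08 at 2 h and 1.61, 0.28 and 1.05 at 4 h. Both the 2 h and the 4 h arrays lay above all 0 h arrays of the line, and replicate 1 was the highest at each time with TGF-β. Of 9 late arrays, 8 lay above the pooled 0 h mean. The response was 0.59 ± 0.16 against the pooled 0 h arrays (adjusted p = 0.0291) and 0.68 ± 0.25 against its own (adjusted p = 0.341).

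The other lines gave Pdgfa responses of 0.01 ± 0.16 in S2WT, 0.07 ± 0.16 in S3WT, -0.04 ± 0.17 in S3KO (-0.02 with that sign turned) and -0.08 ± 0.16 in U0126. The S2KO minus S2WT difference was 0.45 ± 0.36 (adjusted p = 0.858). The second probe, 8392, gave 0.43 ± 0.41 in S2KO, and with the probes averaged the response was 0.49 (adjusted p = 0.265). Leaving out S2KO 4 h replicate 1 gave 0.49 (adjusted p = 0.129), and the call was kept in 16 of 24 such fits.

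Pdgfra, the receptor for that ligand, was on 4 probes that disagreed. Probe 4010 gave 0.52 ± 0.27 in the mean of 5 lines (adjusted p = 0.509) and 1.50 ± 0.38 in S3KO against the pooled 0 h arrays (adjusted p = 0.288). The S3KO 1 h arrays of that probe read 0.19 and 4.82, and all 8 late S3KO arrays lay above the pooled 0 h mean. From the 2 and 4 h arrays alone the S3KO value was 0.66 ± 0.42, and with the sign of the other 1 h array turned it was 1.44 ± 0.40. Probe 7643 gave -0.68 ± 0.29 in S2WT, -0.62 ± 0.29 in S3WT, -0.65 ± 0.29 in S2KO and -0.55 ± 0.29 in U0126, all below 0 and none called. Probe 4153 gave 0.03 ± 0.15 and probe 4233 0.02 ± 0.23 in the mean of 5 lines. Pdgfrl, a receptor-like gene, gave 0.27 ± 0.16 there. Its S2WT arrays read 0.17, -0.04 and -0.09 at 0 h and 0.20, 0.46 and 0.37 at 4 h, and all 9 late S2WT arrays lay above the 0 h mean.

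Flt1, which encodes a VEGF receptor, had the largest mean response of the members over 5 lines, -0.95 ± 0.38 on probe 727 (adjusted p = 0.342). The S2KO arrays of that probe read 0.10, -0.10 and 1.81 at 0 h and -2.77, -2.48 and -5.53 at 1 h, then -0.58, -0.91 and -0.26 at 2 h and 0.44, -0.20 and 2.17 at 4 h. The low values were those of 1 h, and the 4 h arrays overlapped with those of 0 h. The S2KO response was -1.75 ± 0.51 against the pooled 0 h arrays, just short of the threshold (adjusted p = 0.0515). In S2WT the 0 h arrays read 0.89 and 4.04, and in S3WT the 1 h arrays spanned -3.09 to 2.36. The other Flt1 probe, 7566, gave 0.12 ± 0.13 in the mean of 5 lines and -0.25 ± 0.19 in S2KO. Flt4, another VEGF receptor, gave -0.15 ± 0.33 in the mean of 5 lines.

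**Figure D2:**
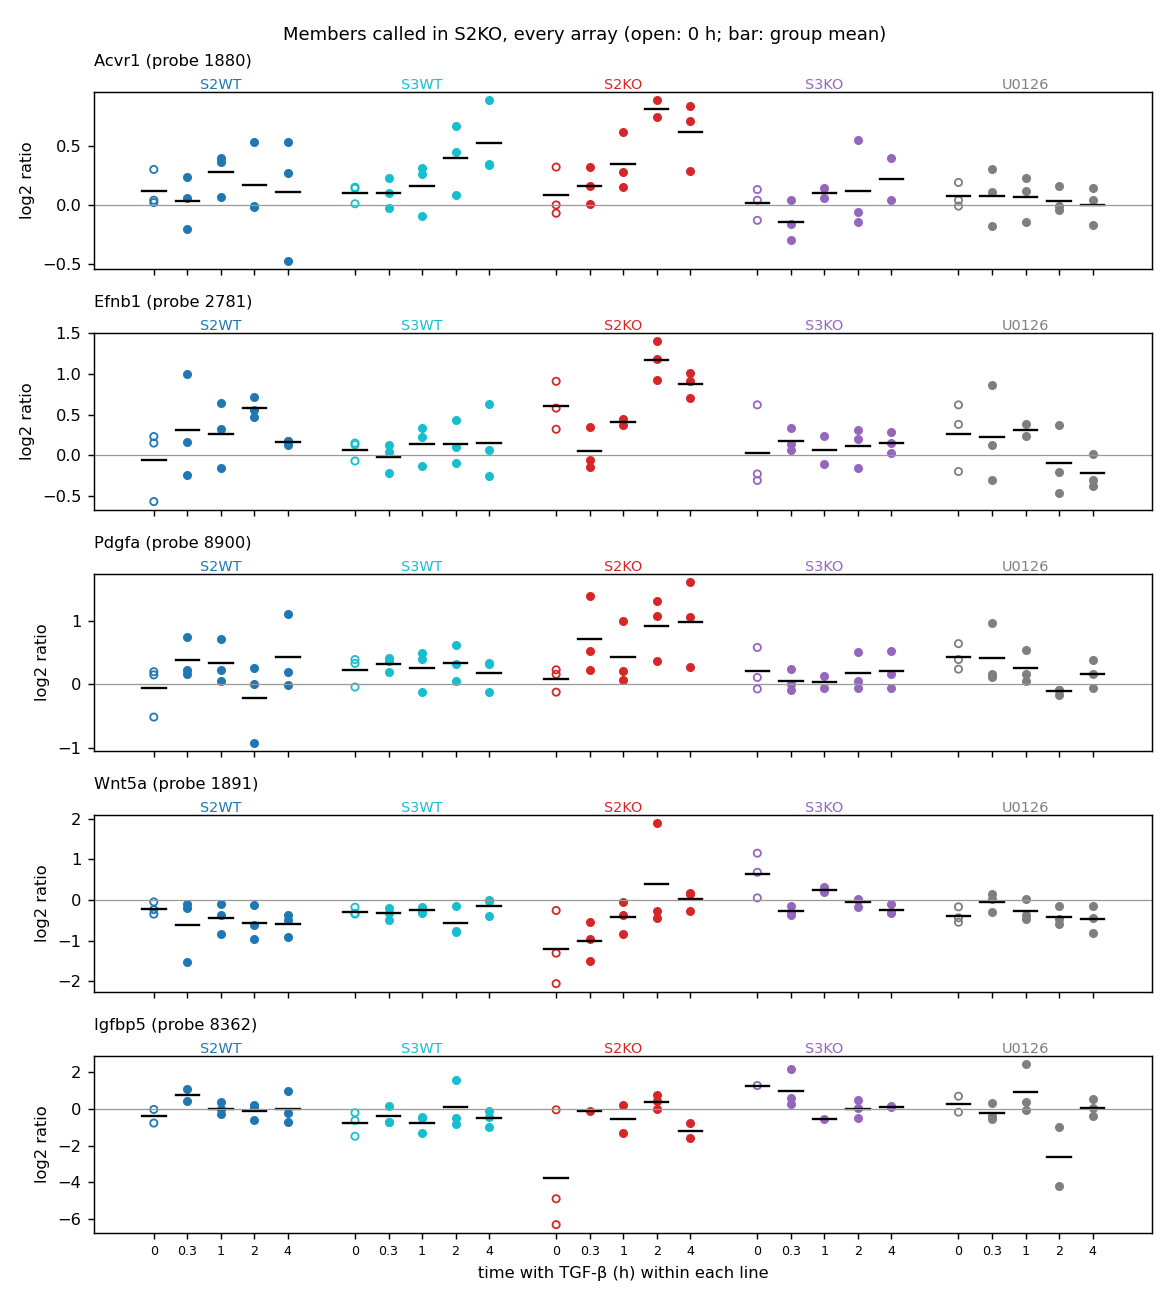
Centred log2 ratios of the 5 called probes on every array that measured them, by line and time with TGF-β in hours; open circles are 0 h arrays and black bars group means. S2KO (red) rises for Acvr1 to a 2 h mean of 0.81, while for Wnt5a and Igfbp5 it is the S2KO 0 h arrays that lie low, with means of -1.21 and -3.75.

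Egfr, the EGF receptor and the only gene of its group in the set, gave -0.18 ± 0.12 in the mean of 5 lines. Against the pooled 0 h arrays it read -0.50 ± 0.17 in S2KO, -0.39 ± 0.17 in S2WT, -0.04 ± 0.17 in U0126, 0.00 ± 0.18 in S3KO (-0.11 with that sign turned) and 0.01 ± 0.17 in S3WT, with no call.

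Ephrins and Eph receptors are membrane-bound ligands and kinases that signal at cell contacts. The called gene was Efnb1, which encodes a transmembrane ephrin. Its S2KO arrays read 0.91, 0.58 and 0.32 at 0 h, -0.14, 0.35 and -0.06 at 0.3 h and 0.44 and 0.37 at 1 h. They read 1.41, 1.18 and 0.92 at 2 h and 1.01, 0.91 and 0.70 at 4 h. The 2 h arrays lay above the 0 h arrays, the 4 h arrays overlapped them, and the 0.3 h arrays were the lowest. The response was 0.64 ± 0.15 against the pooled 0 h arrays (adjusted p = 0.00721) but 0.21 ± 0.23 against the line's own (adjusted p = 0.926). The call therefore rests on S2KO arrays being higher than the 0 h arrays of other lines, and the S2KO 0 h mean was itself 0.60.

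In S2WT the Efnb1 arrays read 0.56, 0.47 and 0.72 at 2 h and -0.57 to 0.23 at 0 h, with an own response of 0.40 ± 0.22. U0126 gave -0.28 ± 0.23, S3WT 0.08 ± 0.22 and S3KO 0.08 ± 0.23 (0.12 with that sign turned). The direct comparison of treated arrays, S2KO minus S2WT, was 0.48 ± 0.16 (adjusted p = 0.23). Uncentred arrays gave 0.52 (adjusted p = 0.0627) and scaled ones 0.53 (adjusted p = 0.0577).

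The other ephrins were not called. Efna5, a lipid-anchored ephrin, gave -0.18 ± 0.07 in the mean of 5 lines (adjusted p = 0.374). At 4 h it read -0.83, -0.40 and -0.78 in S2WT, -0.96, -0.55 and -0.74 in S2KO and -0.66, -0.36 and -0.51 in U0126. The 0 h arrays of those lines spanned -0.33 to 0.01 and did not overlap with the 4 h arrays of the same line. The 4 h arrays of S3WT (-0.18, -0.39 and -0.36) and S3KO (-0.08, -0.08 and -0.09) were higher on average. Against its own 0 h arrays, however, S3KO gave -0.47 ± 0.17 (unadjusted p = 0.00667, adjusted p = 0.161). There 0 of 8 late arrays lay above the 0 h mean. The difference S3KO minus S3WT was -0.65 ± 0.23 (adjusted p = 0.308). In the mean of the 4 lines other than S3KO, Efna5 gave -0.10 (adjusted p = 0.785). Efna2, also lipid-anchored, gave 0.01 ± 0.08 in the mean of 5 lines, and its pooled responses ran from -0.33 ± 0.11 in S3WT (adjusted p = 0.301) to 0.13 ± 0.12 in S3KO. Efnb3, a transmembrane ephrin, gave -0.58 ± 0.32 in the mean of 5 lines and -2.56 ± 0.72 in S2KO against its own 0 h arrays (adjusted p = 0.0898). Of those 0 h arrays 1 read 8.21 where the others read -0.64 and 0.23, and against the pooled 0 h arrays the S2KO response was -0.31 ± 0.47. Epha2 and Epha8, both receptors, gave 0.13 ± 0.15 and -0.19 ± 0.30.

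Lrp3, an LDL-receptor relative, gave 0.28 ± 0.20 in the mean of 5 lines and 0.60 ± 0.27 in S2KO against the pooled 0 h arrays (adjusted p = 0.263). Lrp10, another relative, gave 0.98 ± 0.41 there (adjusted p = 0.235), where 2 of its arrays read 4.55 and 4.30 and the other late S2KO arrays 0.28 to 0.67. Of the genes matched only by their letters, Igf2bp1, an RNA-binding protein gene, gave -0.28 ± 0.17, and Fgfr1op2 gave 0.02 ± 0.10.

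Over the lines together the members were near the background. In the mean of 5 lines 0 of 44 were called, against 1.07% of all probes. There 6 (13.6%) had an unadjusted p under 0.05, against 10.5%. In the mean of S2WT and S3WT 0 of 58 were called, against 0.317%, and 2 (3.45%) had an unadjusted p under 0.05, against 7.83%. At 0.3 h, in the mean of the 4 lines other than S3KO, 0 of 58 were called, against 0% of all probes. There 1 (1.72%) had an unadjusted p under 0.05, against 4.33%. For 39 of the 44 members in the mean of 5 lines, and 39 of the 58 at 0.3 h, the 95% interval lay within 2-fold either way.

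The design asks whether loss of Smad2 or Smad3, or U0126, altered the response, and no member passed the test of such a difference. For S2KO minus S2WT 0 of 59 were called, against 0.0386% of all probes, with 6 (10.2%) at an unadjusted p under 0.05, against 7.13%. For S3KO minus S3WT 0 of 48 were called, against 0.126%, with 3 unadjusted (6.25%), against 9.05%. For U0126 minus S2WT 0 of 60 were called, against 0.0252%, with 2 unadjusted (3.33%), against 6.11%. The interval lay within 2-fold either way for 16 of 59, 16 of 48 and 14 of 60 members. A 2-fold difference was thus not bounded for most. Pairs of lines that share S2WT arrays share their background as well.

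Compared directly, the treated arrays of 1, 2 and 4 h gave the same counts of calls. For S2KO minus S2WT 0 of 61 were called, against 0.326% of all probes. An unadjusted p under 0.05 was had by 12 (19.7%, 10 higher and 2 lower), against 10.4%. The smallest adjusted p there was that of Acvr1, 0.41 ± 0.12 (adjusted p = 0.167), followed by Pdgfa, 0.59 ± 0.18 (adjusted p = 0.17). For S3KO minus S3WT 0 of 50 were called, against 0%, with 5 unadjusted (10%), against 5.95%. For U0126 minus S2WT 0 of 62 were called, against 0%, with 3 unadjusted (4.84%), against 4.88%. With the sign of S3KO 1 h replicate 2 turned, the member calls of each S3KO contrast and of the mean of 5 lines were again 0.

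Treated arrays were also tested against 0, with no 0 h arrays subtracted. Of 47 members tested so in the mean of 5 lines, 22 were called (46.8%), where 50.2% of all probes were, a share near the background. By line they numbered 21 of 65 in S2KO (32.3%, against 26.6% of all probes), 12 of 64 in S2WT (18.8%, against 23.1%), 6 of 65 in S3WT (9.23%, against 8.62%), 2 of 55 in S3KO (3.64%, against 1.82%) and 9 of 69 in U0126 (13%, against 14.3%). A probe can be away from 0 at 0 h too: Bmp1 probe 4800 read 0.41 at 0 h and 0.53 late.

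**Figure D3:**
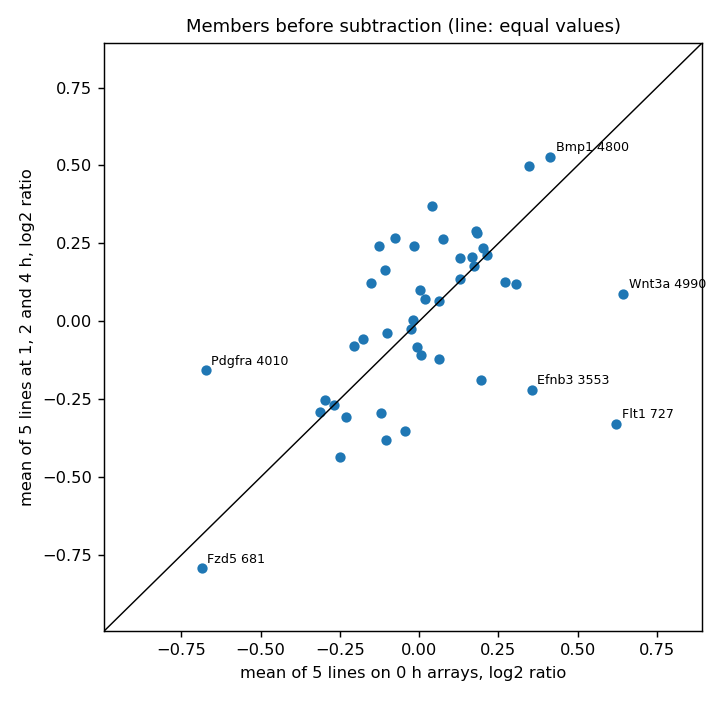
Mean log2 ratio of 44 member probes over 5 lines on the 0 h arrays (horizontal) against the mean at 1, 2 and 4 h (vertical), 1 point per probe, with the line of equal values. Bmp1 4800 (0.41 and 0.53) lies near the line, while Wnt3a, Flt1, Efnb3 and Pdgfra 4010 lie far from it.

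Probes of the same gene did not always move together, as in the pairs of Flt1 and Igfbp5 and the 4 probes of Pdgfra. What sequence each probe holds was not used here, so splice forms and cross-hybridisation could not be told apart.

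**Figure D4:**
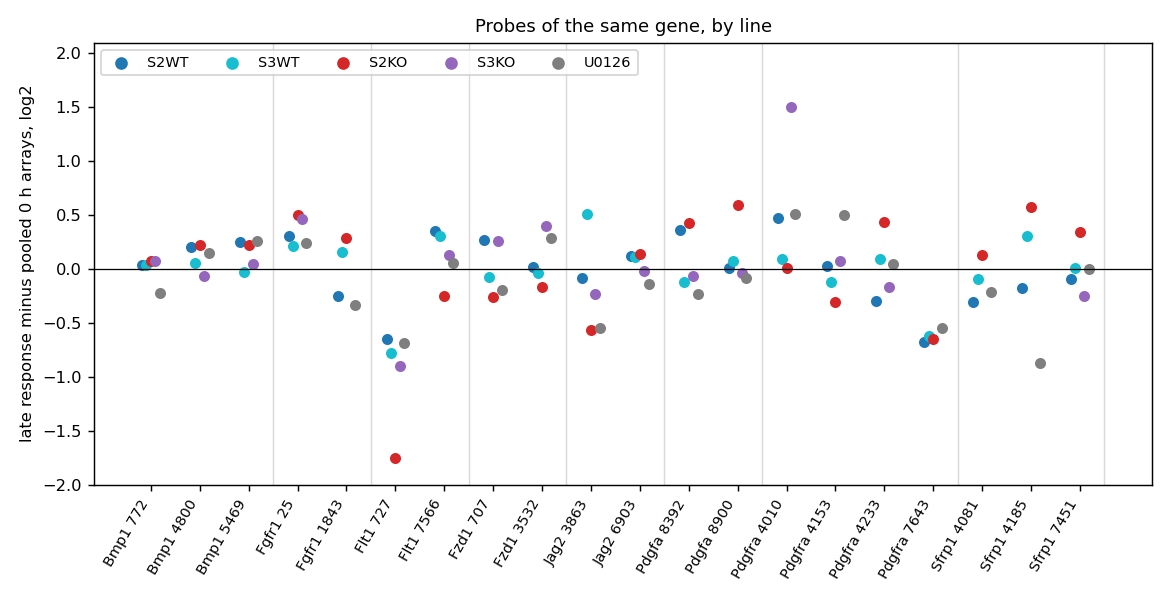
Late response against the pooled 0 h arrays, in log2 units, of genes read by several probes, 1 column per probe and 1 colour per line. Flt1 727 is below 0 in all 5 lines, down to -1.75 in S2KO, while Flt1 7566 lies between -0.25 and 0.35.

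Genes of the same pathways outside the family names gave the members a frame. Of 33 listed TGF-β and BMP pathway genes, 16 were on the array, on 26 probes. Against the pooled 0 h arrays, 4 of the 24 tested probes rose in S2KO and 2 fell, where 2.49% of all probes were called. Tgfbr1, the type I TGF-β receptor gene, rose by 1.06 ± 0.17, and the feedback corepressor gene Skil by 1.22 ± 0.15. The ubiquitin ligase genes Smurf1 and Smurf2 rose by 0.62 ± 0.11 and 0.41 ± 0.07. Among co-receptors, Eng fell by 1.08 ± 0.24 and Tgfbr3 by 1.10 ± 0.28. In S2WT 3 of 23 rose and 2 fell (1.27% of all probes), in U0126 1 of 24 rose (0.782%), and in S3WT (0.146%) and S3KO (0.0141%) none of 24 passed. The median over the list was 0.14 in S2KO and 0.10 in S2WT.

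Against own 0 h arrays fewer probes of this list passed. In S2KO 2 of 26 rose (0.515% of all probes), Skil by 1.21 ± 0.24 and Smurf2 by 0.48 ± 0.11. In S3KO 1 of 24 passed (1.53%): Tgfbr3 on probe 5288 fell by 3.45 ± 0.51 (adjusted p = 0.000152), against -0.93 (adjusted p = 0.585) with the pooled 0 h arrays. None passed in S2WT (0 of 24, 0.192%), S3WT (0 of 25, 0.12%) or U0126 (0 of 26, 0.0719%).

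Of the Wnt pathway list, 10 of 19 genes were on the array. Against the pooled 0 h arrays 1 of 14 tested probes was called in S2KO (2.49% of all probes), Tcf7l1, which rose (0.58 ± 0.15). In U0126 1 of 13 was called (0.782%), Gsk3b on probe 6410, which fell (-1.0 ± 0.16). No other Gsk3b probe was called. Of the Notch list, 10 of 17 genes were on the array and none was called. Of the receptor tyrosine kinase list, 9 of 28 were, and the only called gene was Hbegf, an EGF-family ligand. Hbegf rose by 2.23 ± 0.24 in S2KO, 1.81 ± 0.24 in S2WT, 1.36 ± 0.24 in S3WT and 1.15 ± 0.24 in U0126. Each rise was more than that of any called member against the same background. Hbegf was not called in S3KO, where 0.0141% of all probes were. These lists were drawn up with earlier results of the data known.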

How the data were processed

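RNA was measured on 74 dual-channel arrays. The authors deposited a log2 ratio of the channels for each probe, as the values show. How the slides were scanned and what correction or normalisation came before is not stated in the sources used here. The 1344 cells at the cap (above 16.6), 15 of them in members, were set to missing. Each array was centred on its median (-0.60 to 0.22 as deposited), so values are relative to the median probe. Differences were fitted in R 4.3.3 by least squares on group means over all 74 arrays, with variances moderated by limma 3.58.1 (squeezeVar). Benjamini-Hochberg adjustment ran over all probes of a contrast (threshold 0.05), and a probe needed at least 2 arrays in each group of the contrast. The code was tested on simulated data. Symbols came from the platform annotation: 7348 probes have 1 symbol, 399 several and 1229 none. All 73 member probes matched a gene ID in RefSeq (GRCm38.p6).

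Members, roles and lists were chosen with earlier results of these data known. Values per array are given for the probes called in a contrast and for the 10 with the smallest p in the mean of 5 lines. Up to 4 more per role were named by the same p, besides the probes of genes on several. Of those probes, Fzd5 probe 2946 and the Ephx2 probes are given without values. Bmp5, Gdf9, Notch4, Efna2 and Lrp10 were named after their values were seen. Alternatives were uncentred or scaled arrays, no 0 h subtraction, only probes on every array, a replicate block, only the lines compared, averaged probes, other S3KO or 0 h choices and leaving out each array. The 0 h arrays as 1 group was added after seeing the data.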

Additional observations from a re-analysis of the deposited data

Results flagged for a closer look

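Late responses against own 0 h arrays moved in opposite ways in a pair of lines for 5 member probes: every late array of one line lay above its 0 h mean and every late array of the other below. These differences were not tested. The same pattern was not counted over all probes, so the count of 5 shows nothing particular to the members. S2KO minus S3KO was 1.88 log2 units for Wnt5a, 4.74 for Igfbp5 on probe 8362, 0.89 for Igfbp3 and 5.86 for Notch1 on probe 469. With the sign of S3KO 1 h replicate 2 turned, these were 1.96, 4.55, 0.96 and 5.93, and the arrays stayed on opposite sides. For Wnt5a the 0 h means were -1.21 in S2KO and 0.63 in S3KO, and the late means 0.00 and -0.05. For Igfbp5 S3KO had 1 array at 0 h, at 1.27. For Igfbp3 the S2KO arrays read -0.57, -0.28 and -0.04 at 0 h and 1.19, -0.23 and 0.60 at 4 h, and the S3KO 0 h arrays read 0.61 and -0.02.

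The other values rest on few arrays. For Notch1 probe 469, S2KO and S3KO had 1 array each at 0 h, at -2.50 and 4.65, with 4 and 6 late arrays. S2KO minus U0126 was 5.20 for that probe, with U0126 0 h arrays at a mean of 2.82. For Fgf1, S2KO minus S3WT was 2.70, with 1 S2KO array at 0 h and 3 late ones. S3KO 0 h replicates 1 and 2 stood apart from the 0 h arrays of other lines over the probes measured on every array, and their part in these differences was not tested.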

How the results depend on the processing

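Of 127 recomputed counts of called members, not counting fits that left out an array, 107 stayed within 1.5 times and 20 did not. Most contrasts had 0 called members in the main fit, and 0 that stayed 0 was counted as unchanged. The 107 thus do not show that the calls were stable. The S2KO count against its own 0 h arrays, 2 in the main fit, moved by over 1.5 times in every such alternative. Tested against 0 with no 0 h arrays subtracted, called members numbered 21 in S2KO (32.3%, against 26.6% of all probes), 12 in S2WT (18.8%, 23.1%), 6 in S3WT (9.23%, 8.62%), 2 in S3KO (3.64%, 1.82%), 9 in U0126 (13%, 14.3%), 14 in the mean of S2WT and S3WT (23.7%, 27.5%), 22 in the mean of 5 lines (46.8%, 50.2%) and 12 at 0.3 h (19.4%, 26.4%). That setting also took Wnt5a in S2KO to 0.00, Igfbp5 in S2KO to -0.45, Wnt3a in the mean of 5 lines to 0.09 and Pdgfra probe 4010 there to -0.16, and averaging probes took Pdgfra to -0.01. With uncentred arrays 1 member was called in S2KO against its own 0 h arrays and 1 in each of S2WT and S2KO against the pooled ones. Of the 5 called probes Igfbp5 kept its call with uncentred arrays (adjusted p = 0.0467), while Wnt5a (0.0649) and Pdgfa (0.127) lost it, as did Acvr1 and Efnb1. With scaled arrays S2KO gave 0 and 0, with Pdgfa at 0.42 (adjusted p = 0.191), Wnt5a at 0.96 (0.129) and Igfbp5 at 3.04 (0.121), and S3KO gave 1 against its own. Only probes measured on every array gave S2KO 1 and 1, with 16 members left. Fitting only the line's arrays, or averaging probes, gave S2KO 0 against its own, and S3KO from 2 and 4 h gave 1. For the settings other than the test against 0, calls over all probes are not given here. Those member counts were thus not set against the background. The cause was not tested.

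With the replicate block, Wnt5a at 1.21 (adjusted p = 0.0583) and Igfbp5 at 2.88 (adjusted p = 0.0677) lost their calls in S2KO against its own 0 h arrays, and 1 member gained one: Efnb3, lower, at -2.73 (adjusted p = 0.0463). It changed no other count of calls by over 1.5 times. Deviations of same-numbered arrays from their group means had median correlations of 0.01 to 0.17 per line. These correlations went below 0.1 in every line, to -0.22 at the lowest. For arrays of different number the medians ran from -0.10 to -0.02, and each line had the higher median for the same number. Same-numbered arrays were thus slightly more alike, least so in U0126 (0.01 against -0.02). Whether the number pairs the arrays was not settled.

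Leaving out 1 array at a time, S2KO gave 0 to 3 calls against its own 0 h arrays and 1 to 4 against the pooled ones. Over all probes these fits called 16 to 92 and 117 to 325. S2KO 0 h replicate 1, 1 h replicate 1 and 4 h replicates 1 and 3 each took the own count to 0, and 2 h replicate 1 took the pooled count to 1. S3KO gave 0 to 6 against its own, with 6 without 0 h replicate 3 and 2 without replicate 1. Against the pooled ones S3KO gave 0 to 1, without 1 h replicate 2. Over all probes the S3KO fits called 45 to 418 and 0 to 25, so the member counts cannot be read alone. The difference S2KO minus S2WT gave 0 to 2 (without S2KO 0 h replicate 3) and S3KO minus S3WT 0 to 1 (without S3KO 0 h replicate 3). Over all probes these differences gave 0 to 12 and 0 to 189. The direct comparisons S2KO minus S2WT and S3KO minus S3WT gave 0 to 1 each (without S2KO 4 h replicate 2, and S3KO 1 h replicate 2). Over all probes those comparisons gave 10 to 71 and 0 to 39. The direct comparison U0126 minus S2WT gave 0 in all 18 such fits, where 0 to 1 of all probes were called. Acvr1 and Efnb1 were called in all 22 such fits each, at 0.47 to 0.57 and 0.59 to 0.70. The signal over background is unknown here, so weak spots could not be set apart.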
